A study of Mus musculus with 10 samples.

Results

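The 35 genes described here mark astrocytes, the star-shaped support cells of the brain. They were listed by symbol and matched to their Ensembl gene IDs in a table of 29883 genes, and all 35 were found. RNA was measured by poly-A RNA sequencing of the nucleus accumbens (NAc), a ventral striatal region for reward and motivation, in 5 C57BL/6J (B6) and 5 DBA/2J (D2) mice. All 10 mice were males taken at 9 weeks of age, no treatment is given in the labels, and each mouse gave 1 library. B6 and D2 are inbred strains that differ at many positions of the genome and in their behavioral responses to ethanol, and the study asked how expression differs between them. Strain was the single factor, so that a difference below belongs to these strains as compared in 1 set of mice, and the p-values measure the spread between these mice.

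Astrocytes clear glutamate from the synapse through the transporters Slc1a2 and Slc1a3 and turn it into glutamine with glutamine synthetase, the product of Glul. They buffer potassium and water through end-feet that carry the water channel Aqp4, are joined into networks by the connexins encoded by Gja1 and Gjb6, and store the brain's glycogen. When they react to injury or disease they increase the filament proteins encoded by Gfap and Vim.

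The libraries held 96977262 to 116776714 counted reads, of which the 35 genes together took 0.916% to 1.05%. B6 replicates 3 and 5 stood apart from the other B6 mice: their summed level of 8 cortex neuron markers was 103478 and 105542 normalized counts, against 16572 to 25077 in the other 3 B6 mice and 32424 to 70392 in D2. Their summed oligodendrocyte markers were also the highest, 690965 and 687265, against 479654 to 575985 in the other 3 B6 mice and 362111 to 529742 in D2. These 2 libraries were also the most alike of the 20 pairs within a strain, with a mean chi-square per gene of 4.89 against 17.5 to 118.9 for the other pairs. They still differed by more than sampling noise, though this does not show that they came from separate mice. The labels give them as 2 mice, and they were kept as such. Members whose call turned on them are given with and without them. A normalized count is the count divided by the TMM-scaled library size and multiplied by the mean of those sizes.

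Most of the astrocyte genes that differed were lower in D2. A gene is called here when its adjusted p in edgeR's quasi-likelihood test, with Benjamini-Hochberg adjustment over all 29883 genes, is under 0.05, and the log2 fold change is D2 minus B6. Of the 35 genes, 10 were called, against 18.3% of all genes. Lower in D2 were 9 (background 9.83%), namely Glul, Htra1, Ntsr2, Aldoc, Aldh1l1, Ppp1r3c, Clu, Aqp4 and Hepacam, and higher in D2 was 1 (background 8.5%), Gja1. Normalized counts of the strains did not overlap for 6 of the 35, where 16% of all genes showed no overlap. The median log2 fold change was -0.051 over the 35 genes and 0.0036 over all genes, with 24 negative and 11 positive values among the 35. Without B6 replicates 3 and 5, 14 members were called, 11 lower and 3 higher in D2, against 19.2% of all genes in that fit (9.54% lower and 9.68% higher). With the libraries scaled to the 40 genes of a second astrocyte list, 11 members were called, 5 higher and 6 lower in D2, and over all genes (19.7% called) 3740 were higher (12.5%) and 2133 lower (7.14%), against 2541 and 2937 with TMM scaling. In bulk tissue fewer astrocytes and less RNA per astrocyte cannot be told apart.

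**Figure D1:**
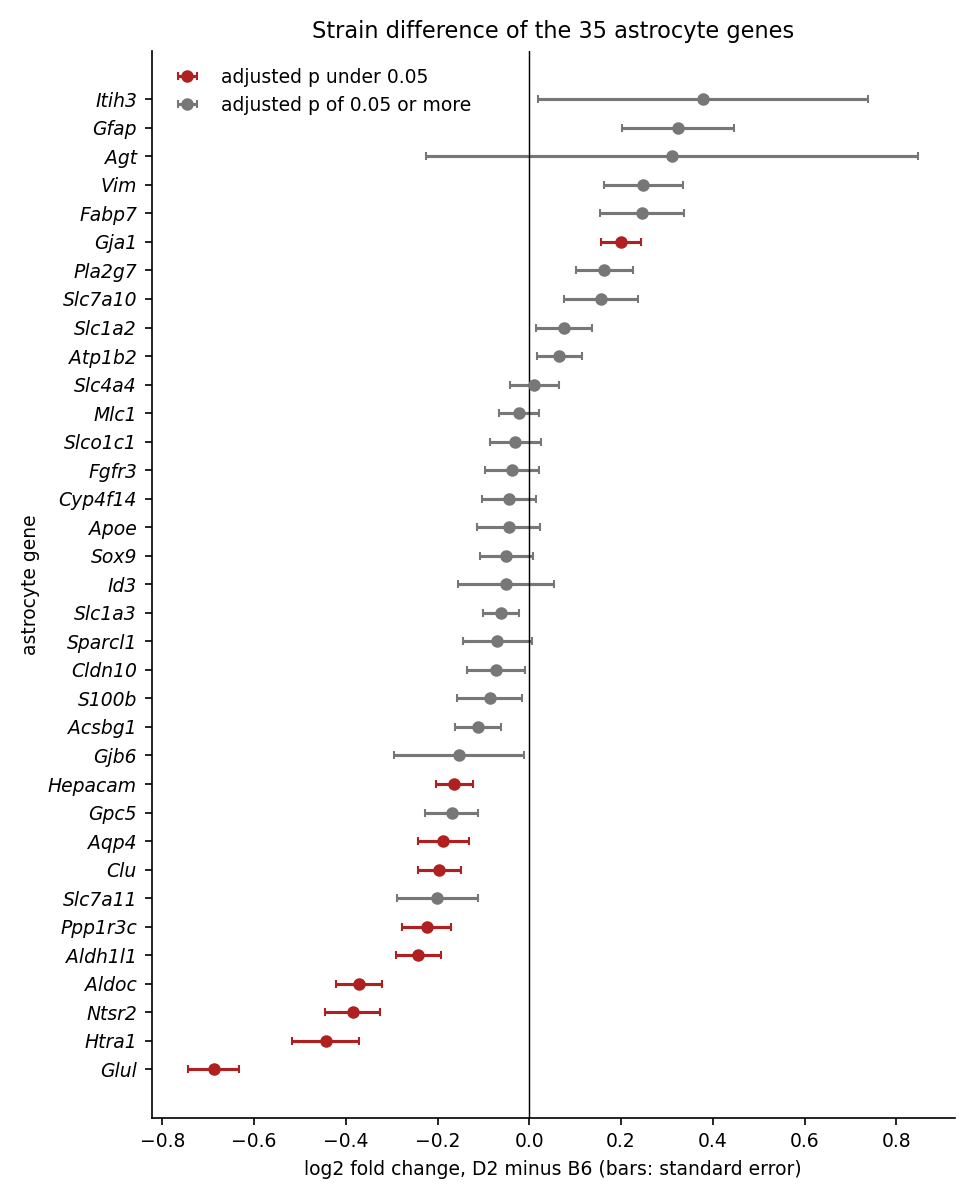
Strain difference of each of the 35 astrocyte genes as log2 fold change, D2 minus B6, with its standard error (5 B6 and 5 D2 mice). Red points are the 10 genes with an edgeR adjusted p under 0.05, of which Gja1 alone lies to the right of 0, and Agt and Itih3 have the widest bars.

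Glul gave the largest change of the 35. It encodes glutamine synthetase and lies on chromosome 1 (chr1:153775690-153785469, GRCm39). In the B6 mice its normalized counts were 115606, 128206, 131776, 114757 and 135282, and in the D2 mice 82095, 76201, 78071, 72026 and 79920.1. Every D2 mouse lay well below every B6 mouse, and the spread within D2 was narrow. Means were 125125 ± 9421 in B6 and 77663 ± 3835 in D2 (SD, n = 5), so that Glul was 1.61-fold lower in D2 (log2 fold change -0.69, SE 0.056, adjusted p = 1.66e-06, edgeR). It remained called under all 11 alternatives of processing and with each mouse left out, and was -0.62 without B6 replicates 3 and 5. With the oligodendrocyte marker level as a covariate Glul had its smallest change of the 11 alternatives (log2 fold change -0.55, adjusted p = 4.03e-05, edgeR). Its end overlaps by 285 bp with Teddm2 on the other strand, which was also lower in D2 (log2 fold change -1.01, adjusted p = 4.71e-06, edgeR) but had a mean of only 238.9 normalized counts in B6. How the reads were assigned to strands is not stated in the sources used here.

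The glutamate transporters that feed glutamine synthesis did not pass the test. Slc1a2 (GLT-1), the main glutamate transporter of the adult forebrain, had 255282, 263988, 304996, 265097 and 308217 normalized counts in B6 and 291235, 305409.7, 309612, 285402 and 281773 in D2. B6 replicates 3 and 5 lay within the D2 values, and the other 3 B6 mice lay below all 5 D2 mice. The log2 fold change was 0.076, with an interval of -0.043 to 0.20 (95%, from the standard error), and the edgeR adjusted p was 0.466. Without B6 replicates 3 and 5 it was 0.17 and Slc1a2 was called higher in D2 (adjusted p = 0.0102, edgeR).

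For Slc1a3 (GLAST), the second astrocyte glutamate transporter, the B6 values were 65183, 64183, 60523, 61268 and 61736 and the D2 values 60070.1, 62765, 56546, 62491 and 57948. The strains overlapped broadly (log2 fold change -0.062, interval -0.14 to 0.017, edgeR adjusted p = 0.355). The ratio of Slc1a2 to Slc1a3 reads within a mouse, which does not depend on library scaling, averaged 4.48 ± 0.513 in B6 mice against 4.92 ± 0.333 in D2 mice (n = 5 each, SD). Over all assignments of the mice to strains its difference gave p = 0.151 (exact permutation test, two-sided, adjusted p = 0.201 over the 4 ratios tested). The ratios in B6 replicates 3 and 5 were 5.04 and 4.99, above the 3.92 to 4.33 of the other B6 mice, and without these 2 mice the log2 difference rose from 0.14 to 0.26 (exact permutation test, adjusted p = 0.0476). These 2 mice were left out after seeing the data, and 3 against 5 mice allow no exact permutation p under 0.0357 before adjustment.

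A pair of amino acid exchangers sits beside these transporters. Slc7a11 (xCT) imports cystine in exchange for glutamate, and Slc7a10 (Asc-1) carries small neutral amino acids such as serine and glycine. Alone, neither was called: Slc7a11 ran from 3215 to 4434 normalized counts in B6 and from 3112 to 3617 in D2 (log2 fold change -0.20, edgeR adjusted p = 0.147). Slc7a10 ran from 2876 to 3818 in B6 and from 3448 to 3996 in D2 (log2 fold change 0.16, edgeR adjusted p = 0.231). With B6 replicates 3 and 5 left out, Slc7a11 was called lower in D2 (log2 fold change -0.34, adjusted p = 0.00119, edgeR), and Slc7a10 had a log2 fold change of 0.033. With the cortex marker level as a covariate Slc7a10 was called higher in D2 (log2 fold change 0.22, adjusted p = 0.000664, edgeR). This was the only 1 of the 11 alternatives that called Slc7a10. With the oligodendrocyte marker level as a covariate its log2 fold change was 0.0077 (adjusted p = 0.98, edgeR). The ratio of Slc7a11 to Slc7a10 was 1.19, 1.03, 1.07, 1.21 and 1.15 in the B6 mice and 0.813, 1.01, 0.924, 0.784 and 0.909 in the D2 mice. No D2 ratio reached the lowest B6 ratio. The log2 difference was -0.35, with the smallest p that all assignments of 5 and 5 mice allow (0.00794, exact permutation test, two-sided, adjusted p = 0.0317 over the 4 ratios), and it was -0.37 without B6 replicates 3 and 5 (adjusted p = 0.0476, exact permutation test). That second value has the same limits as for Slc1a2 to Slc1a3: mice left out after seeing the data, and no unadjusted p under 0.0357. Slc7a10 shares 7802 bp with Lrp3 on the other strand, which was higher in D2 (log2 fold change 0.23, adjusted p = 0.000307, edgeR), and the share of Slc7a10 reads from Lrp3 was not tested.

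Of the metabolic genes, Aldoc, Aldh1l1 and Ppp1r3c were called lower in D2. Aldoc, the brain aldolase of glycolysis (chromosome 11, chr11:78213619-78218889), had 58435, 67128, 60103, 61117 and 62286 normalized counts in B6. The D2 mice had 51779, 46782, 47026, 44033 and 49366. The highest D2 mouse was below the lowest B6 mouse, and Aldoc was 1.29-fold lower in D2 (log2 fold change -0.37, SE 0.05, adjusted p = 0.000164, edgeR), a call made under all 11 alternatives.

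Aldh1l1, the folate enzyme most used to mark astrocytes across brain regions, gave 5042, 5832, 5089, 5173 and 5443 in B6 and 4797, 4644, 4232, 4256 and 4543 in D2. The strains were again separate, by a gap smaller than the spread within either strain (1.18-fold lower in D2, log2 fold change -0.24, SE 0.05, adjusted p = 0.00381, edgeR). Ppp1r3c, a subunit that directs protein phosphatase 1 to glycogen, ranged over 2867 to 3245 in B6 and 2342 to 2851 in D2, without overlap (log2 fold change -0.22, SE 0.053, adjusted p = 0.01, edgeR). With the oligodendrocyte marker level as a covariate both kept their direction with wider errors and lost their call. The log2 fold change was then -0.17 for Aldh1l1 (SE 0.064, adjusted p = 0.136, edgeR) and -0.17 for Ppp1r3c (SE 0.072, adjusted p = 0.183, edgeR).

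The other lipid and metabolic genes of the list were not called. Acsbg1, an acyl-CoA synthetase, had a log2 fold change of -0.11 (edgeR adjusted p = 0.158), and Cyp4f14, a fatty acid hydroxylase, -0.044 (0.686). Fabp7, the brain fatty acid binding protein, stood at 1522 to 1954 normalized counts in B6 and 1698 to 2389.5 in D2 (log2 fold change 0.25, edgeR adjusted p = 0.0899). Fabp7 was called higher in D2 under 2 of the 11 alternatives, and its log2 fold change was 0.04 with the oligodendrocyte covariate. Pla2g7, which encodes a secreted phospholipase that degrades platelet-activating factor, had D2 values that all exceeded the B6 mean, from 9017 to 10429.6 against 7914 to 9581 in B6 (log2 fold change 0.16, edgeR adjusted p = 0.0925). Pla2g7 was called higher in D2 without B6 replicates 3 and 5 (log2 fold change 0.25, adjusted p = 0.00576, edgeR) and with the oligodendrocyte marker level as a covariate (0.35).

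Glycogen and lactate genes outside the list gave no call to set beside Ppp1r3c. Of 12 genes for glycogen synthesis and breakdown, lactate transport, glucose entry and related energy supply, 0 were called by edgeR, 4 had an unadjusted p under 0.05, and DESeq2 called 2. Their median log2 fold change was -0.046.

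Ntsr2 and Fgfr3 encode receptors, and Ntsr2 differed. Ntsr2, the low-affinity neurotensin receptor (chromosome 12, chr12:16703383-16710243), had 11998, 13011, 10424, 11439 and 10728 normalized counts in B6. In D2 it had 9516, 8686, 8199, 8591 and 9107. All D2 mice were below all B6 mice, and B6 replicates 3 and 5 were the B6 mice nearest to D2. Ntsr2 was 1.31-fold lower in D2 (log2 fold change -0.39, SE 0.06, adjusted p = 0.000527, edgeR), a call kept under all 11 alternatives, and without those 2 mice the log2 fold change was -0.46. Fgfr3, a fibroblast growth factor receptor of astrocytes, ran from 9908 to 11898 in B6 and from 10380 to 12141 in D2, with a log2 fold change of -0.038 and an interval of -0.15 to 0.076 (edgeR adjusted p = 0.739).

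Among secreted proteins, Htra1 and Clu were lower in D2. Htra1 encodes a serine protease of the extracellular space (chromosome 7, chr7:130537518-130587390). Its normalized counts were 10076, 11492, 12851, 10159 and 13291 in B6 and 8815, 8449, 8455, 8118 and 8710.5 in D2. The D2 mice lay close together, below every B6 mouse, and B6 replicates 3 and 5 were the highest of all. Htra1 was 1.36-fold lower in D2 (log2 fold change -0.44, SE 0.073, adjusted p = 0.000803, edgeR). The log2 fold change was -0.31 without B6 replicates 3 and 5, still called, and -0.26 with the oligodendrocyte marker level as a covariate, where the call was lost (adjusted p = 0.0525, edgeR). Htra1 lies within the span of Fgfr2 on the other strand, which had a log2 fold change of -0.18 and was not called (adjusted p = 0.163, edgeR).

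Clu, the secreted chaperone clusterin, stood at 62890.2 to 72768 in B6 and 57568 to 63012 in D2, so that the strains touched at 1 mouse each (log2 fold change -0.20, SE 0.047, adjusted p = 0.0103, edgeR). Its call was lost with the libraries scaled to the second astrocyte list (log2 fold change -0.14, adjusted p = 0.12, edgeR), with the oligodendrocyte marker level as a covariate (-0.11, adjusted p = 0.312) and without B6 replicate 2 and D2 replicate 1 (-0.18, adjusted p = 0.056). Over 1202 bp Clu overlaps Scara3 on the other strand, which was lower in D2 as well (log2 fold change -0.74, adjusted p = 0.000496, edgeR). Apoe, the main lipoprotein of the brain, ranged over 97015 to 123329.5 normalized counts in B6 and 103381 to 113941 in D2 (log2 fold change -0.045, interval -0.18 to 0.088, edgeR adjusted p = 0.733). Its 2 lowest B6 values were those of replicates 3 and 5, and without them Apoe was called lower in D2 (log2 fold change -0.15, adjusted p = 0.026, edgeR). Sparcl1 (hevin), a matrix protein that promotes synapse formation, had a log2 fold change of -0.069 (edgeR adjusted p = 0.613). Gpc5, a membrane-anchored heparan sulfate proteoglycan, had -0.17 (0.0619) and was called lower under 5 of the 11 alternatives and without B6 replicates 3 and 5 (-0.22).

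**Figure D2:**
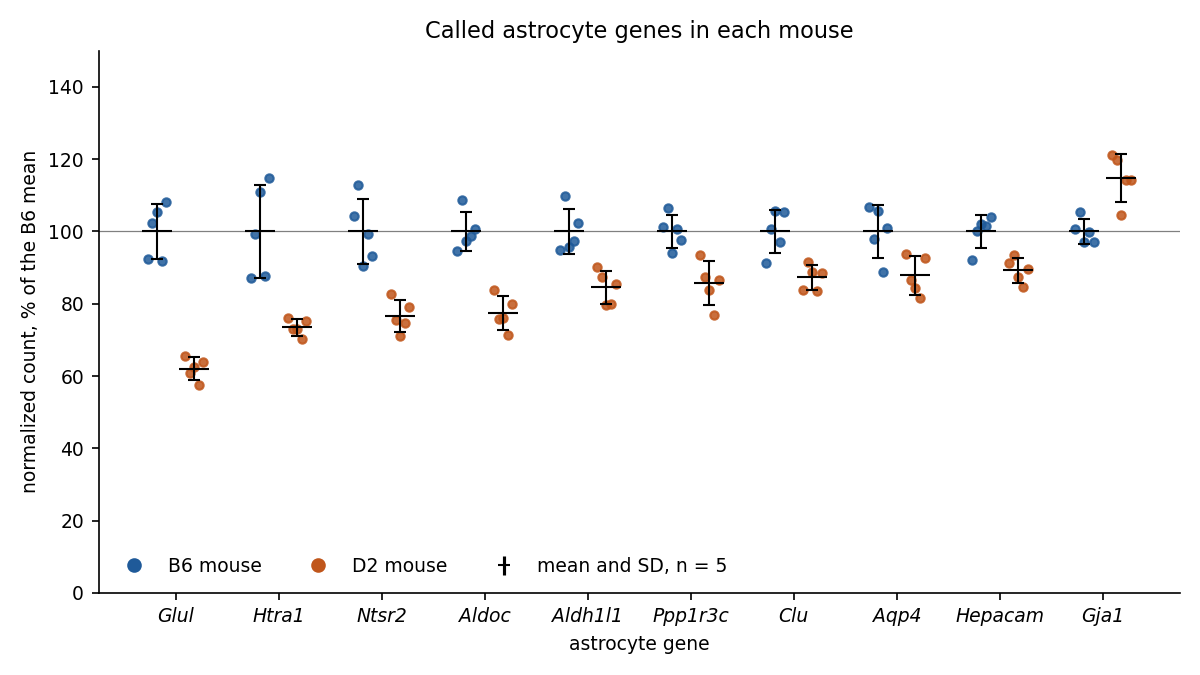
Normalized counts of the 10 called astrocyte genes in each of 5 B6 and 5 D2 mice, as a percentage of the B6 mean of that gene, with mean and SD. Glul falls farthest, Htra1 has the widest B6 spread, and in Gja1 the D2 mice lie above the B6 mean.

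Of the connexins, Gja1 rose in D2 and Gjb6 was not called. Gja1, connexin 43, the main gap junction protein of astrocytes, had 17326, 18142, 16676, 17158 and 16686 normalized counts in B6 and 20848, 20612, 17963, 19634 and 19668 in D2. Only D2 replicate 3 fell within the B6 range. Gja1 was 1.15-fold higher in D2 (log2 fold change 0.20, SE 0.043, adjusted p = 0.00562, edgeR) and was the sole called member in that direction, and with the oligodendrocyte marker level as a covariate the log2 fold change stayed at 0.20 while its SE rose to 0.061 and the call was lost (adjusted p = 0.0572, edgeR). Gjb6, connexin 30, ran from 1868 to 2824 in B6 and from 1614 to 2505 in D2 and was not called (log2 fold change -0.15, edgeR adjusted p = 0.54). The ratio of Gja1 to Gjb6 averaged 7.67 ± 1.14 in B6 mice against 9.84 ± 1.66 in D2 mice (n = 5 each, SD), a log2 difference of 0.36 that did not pass after adjustment (p = 0.0476, adjusted p = 0.0952, exact permutation test). Leaving out B6 replicates 3 and 5, whose ratios of 8.93 and 8.83 were the highest in B6, gave 0.50 (exact permutation test, adjusted p = 0.0476). That choice was made after seeing the data, and the smallest unadjusted p of this test for 3 against 5 mice is 0.0357.

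Aqp4, the water channel of the end-feet on chromosome 18, had 11381, 10442, 11257, 9459 and 10749.5 normalized counts in B6. The D2 values were 10005, 9226, 9000.4, 8688 and 9887. B6 replicate 4 lay among the D2 mice and the other B6 mice lay above all of them. The call was close to the threshold (log2 fold change -0.19, SE 0.055, adjusted p = 0.0323, edgeR). It was made in 4 of the 10 fits with 1 mouse left out, where the adjusted p reached 0.0837, and it was lost without B6 replicates 3 and 5 (log2 fold change -0.16, adjusted p = 0.104, edgeR), with scaling to the second astrocyte list (-0.13, adjusted p = 0.108) and with the oligodendrocyte covariate (-0.13, adjusted p = 0.358). Hepacam (GlialCAM), an adhesion protein that anchors Mlc1 at astrocyte junctions, was also lower in D2 (log2 fold change -0.16, SE 0.04, adjusted p = 0.012, edgeR), with 8389.8 to 9466 in B6 against 7699 to 8516 in D2. Its call was lost with scaling to the second astrocyte list (log2 fold change -0.10, adjusted p = 0.11, edgeR) and with the oligodendrocyte covariate (-0.08, adjusted p = 0.349). Its partner Mlc1 had a log2 fold change of -0.022 with an interval of -0.11 to 0.063 (edgeR adjusted p = 0.803).

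Ion carriers and the remaining membrane genes were not called. Slc4a4, the sodium bicarbonate cotransporter, had a log2 fold change of 0.011 (interval -0.094 to 0.12), and Atp1b2, the beta-2 subunit of the sodium pump, 0.065 (-0.03 to 0.16). Cldn10, a claudin, had -0.072 (-0.20 to 0.052). Slco1c1, a thyroid hormone transporter that brain endothelium also expresses, had -0.031 (-0.14 to 0.078). The edgeR adjusted p-values of these 4 genes ran from 0.427 to 0.927.

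The filament genes had higher means in D2 and missed the threshold. Gfap, the classical marker of astrocytes and of their reaction to injury, had 6636, 7596, 7158, 6931 and 7562 normalized counts in B6 and 8895, 9557, 7666, 6766 and 12034 in D2. The D2 mice spread from below the B6 mean in replicate 4 to far above every B6 mouse in replicate 5, and the coefficient of variation was 22.5% in D2 against 5.73% in B6. The log2 fold change was 0.32 (SE 0.12, edgeR adjusted p = 0.0891), and Gfap was called by DESeq2 and with the libraries scaled to other astrocyte genes. With 1 mouse left out it ranged from 0.20 without D2 replicate 5 (adjusted p = 0.177, edgeR) to 0.41 without D2 replicate 4 (adjusted p = 0.0189, edgeR), the one such fit that called it. For Vim (vimentin), which vessels and ependyma express too, the range was 2041 to 2569 in B6 and 2366 to 3193 in D2 (log2 fold change 0.25, edgeR adjusted p = 0.0633), with a call under 4 of the 11 alternatives. The ratio of Gfap to Vim averaged 3.27 ± 0.399 in B6 mice against 3.43 ± 0.739 in D2 mice (n = 5 each, SD, exact permutation test, p = 0.746).

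Of the remaining general markers, S100b encodes a calcium-binding protein found in astrocytes and some oligodendrocytes. Its normalized counts were 8269, 9329, 9128, 7606 and 9059 in B6 and 9137, 8110, 8427, 6999 and 8207 in D2. The strains overlapped almost throughout (log2 fold change -0.086, interval -0.22 to 0.053, edgeR adjusted p = 0.481). Sox9, the transcription factor that marks astrocyte nuclei, had 2814, 2850.1, 2919, 3043 and 2629 in B6 and 2514, 3012, 2558, 2937 and 2749 in D2. There too the ranges were nearly the same (log2 fold change -0.05, interval -0.16 to 0.064, edgeR adjusted p = 0.646). Id3, a transcriptional inhibitor that vessels also express, had -0.051 (-0.26 to 0.15, adjusted p = 0.809, edgeR).

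Agt and Itih3 varied most between mice. Agt encodes angiotensinogen, made in the brain mainly by astrocytes, and its normalized counts were 2220.2, 2313, 312, 1267 and 265 in B6 and 2789, 981, 1084, 1637 and 1431 in D2. B6 replicates 3 and 5 were far below every other mouse. Itih3, a heavy chain of the inter-alpha-trypsin inhibitor that binds hyaluronan, had 6231, 6092, 1657, 3499 and 1726 in B6 and 7523, 3879.7, 3665, 5226 and 4678 in D2. The same 2 B6 mice were lowest, and D2 replicate 1 was highest for both genes. The summed cortex neuron markers in the same order were 17495, 16572, 103478, 25077 and 105542 in B6 and 32424, 64061, 70392, 56914 and 41614 in D2, so that the 2 mice with the highest cortex level had the lowest Agt and Itih3. Their summed oligodendrocyte markers were the highest too (690965 and 687265).

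Neither gene was called (log2 fold change 0.31, SE 0.54, adjusted p = 0.77 for Agt and 0.38, SE 0.36, 0.555 for Itih3, edgeR), and their direction turned on these 2 mice. Without B6 replicates 3 and 5 the log2 fold changes were -0.29 and -0.08 (adjusted p = 0.582 and 0.865, edgeR), and with the cortex marker level as a covariate they were 1.24 and 0.86, both called higher in D2. Of the 8 cortex markers, 0 were called by edgeR, 1 had an unadjusted p under 0.05 and DESeq2 called 0. Without those 2 mice 6 of the 8 were called, all higher in D2. The 2 mice were picked for their high level of these same markers, so this count is no separate result about the strains. Glul in the same 2 mice was the highest of all. The part of cortex tissue or of oligodendrocytes in the levels of Agt, Itih3 and Glul was not tested.

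**Figure D3:**
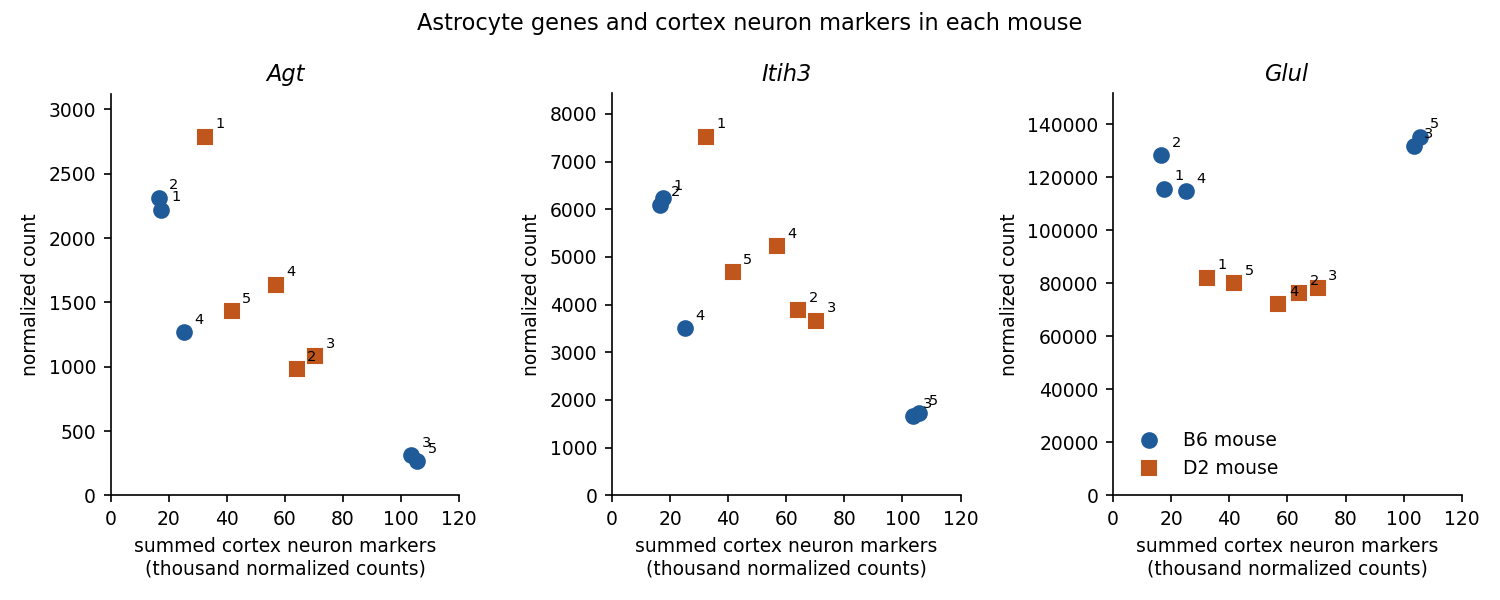
Normalized counts of Agt, Itih3 and Glul against the summed normalized counts of 8 cortex neuron markers in each of 5 B6 and 5 D2 mice, with replicate numbers. B6 replicates 3 and 5, at 103478 and 105542 marker counts, are lowest for Agt and Itih3 and highest for Glul. They also had the highest summed oligodendrocyte markers, which are not plotted.

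Per kilobase of exon, the astrocyte genes spanned a wide range of levels. The length used is that of all annotated exons of a gene merged, which for Apoe was 4048 bp of a span of 4914 bp. The order of different genes depends on this length, and no other length was tried. In B6, Glul came first with 31693 normalized counts per kilobase, followed by Apoe with 27215, Slc1a2 with 19974, Sparcl1 with 17584, Aldoc with 13236 and Clu with 12223. The B6 values of Glul and Apoe overlapped. In D2, Apoe came first with 26377 normalized counts per kilobase, Slc1a2 came next with 21058 and Glul after it with 19671, and the D2 values of Slc1a2 and Glul overlapped while those of Apoe lay above both. At the low end in B6 and D2 stood Cyp4f14 (131 and 127), Agt (154 and 192) and Slc7a11 (247 and 215). Aldh1l1, with 624 per kilobase in B6, was far below Glul although both are used as markers of the same cells.

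**Figure D4:**
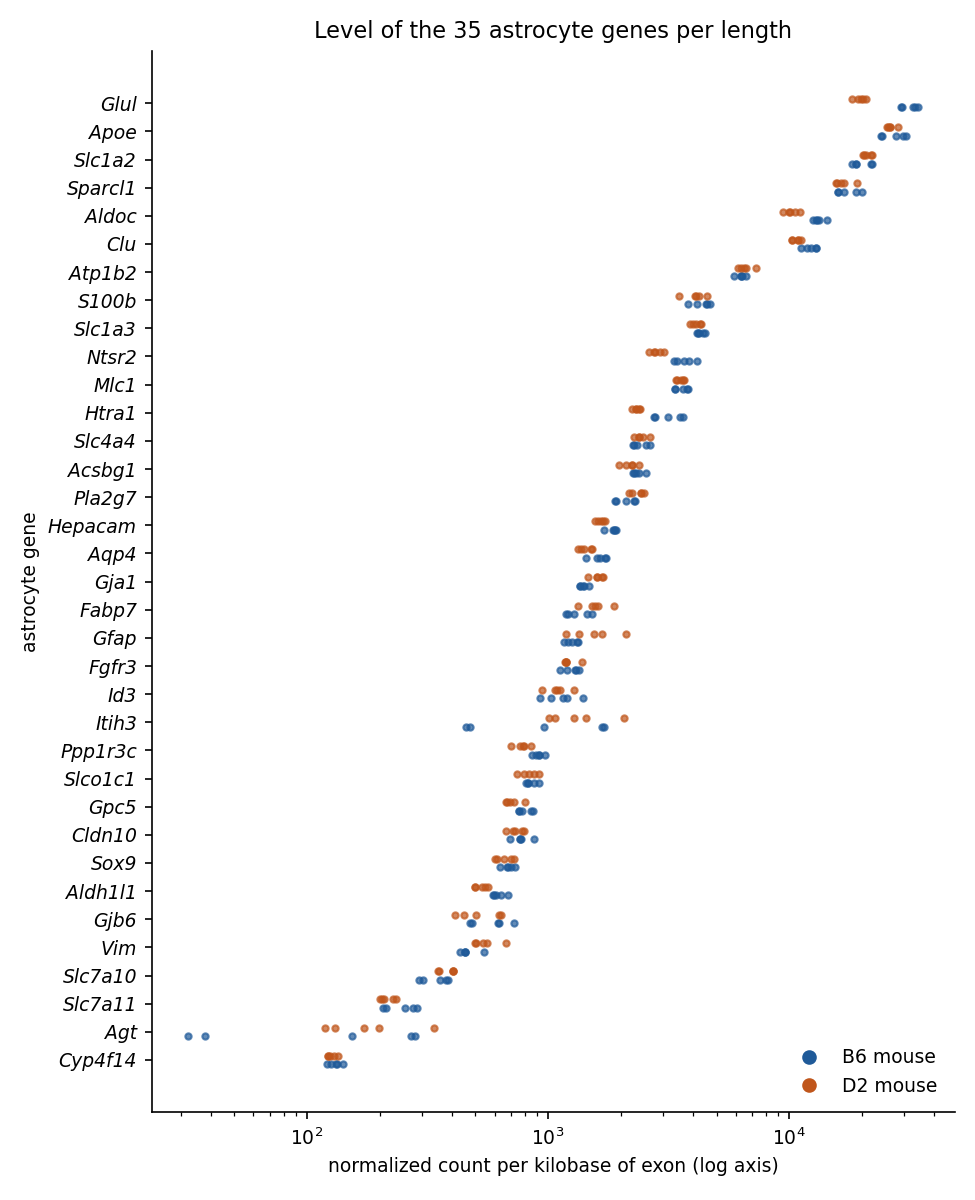
Normalized counts per kilobase of exon of the 35 astrocyte genes in each mouse on a log axis, ordered by the B6 mean (5 B6 and 5 D2 mice). With all annotated exons merged as the length, Glul leads in B6 but lies below Apoe and Slc1a2 in D2. Agt and Itih3 show 2 B6 mice far to the left.

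The summed level of the 35 genes averaged 1085740 ± 30144 normalized counts in B6 mice against 1015630 ± 28559 in D2 mice (n = 5 each, SD), or 1.07-fold lower in D2 (log2 ratio -0.096). A large part of this fall lay in Glul alone, whose mean went from 125125 in B6 to 77663 in D2. The sum without Glul was not taken. The log2 ratio was -0.16 without Slc1a2, the member with the highest count, and -0.039 as a geometric mean over the members. Single mice tended to be high or low for many members at once. B6 replicate 2 was the highest of its strain for 19 of the 35 genes and D2 replicate 1 for 23. Lowest of its strain was B6 replicate 3 for 14 genes and D2 replicate 4 for 16. Without B6 replicate 2 and D2 replicate 1, 10 members were called, 9 lower and 1 higher, against 14.5% of all genes.

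A second list of 40 astrocyte genes was read alongside. Of these, 12 were called, against 18.3% of all genes. In D2, 9 were lower (background 9.83%) and 3 higher (background 8.5%), with a median log2 fold change of -0.066 over the list. Fam107a, an actin-binding stress-response gene, fell from 29784 to 38775 normalized counts in B6 to 18142 to 19822 in D2, without overlap (log2 fold change -0.90, SE 0.066, adjusted p = 6.54e-07, edgeR). Dbi, the acyl-CoA binding protein (also named diazepam binding inhibitor), and F3, tissue factor, were lower as well (log2 fold changes -0.39 and -0.37). Kcnj10 (Kir4.1), the inward-rectifier channel with which astrocytes take up potassium, went the other way. It had 22479, 22258, 19186, 18587 and 19395 in B6 and 38155, 30158, 30168, 32949.7 and 31491 in D2. Each D2 mouse was above each B6 mouse (log2 fold change 0.68, SE 0.074, adjusted p = 2.68e-05, edgeR). Ednrb, the endothelin B receptor, and Cst3, cystatin C, were also higher in D2 (log2 fold changes 0.41 and 0.19). Of 8 genes described for striatal astrocytes, 2 were called, where 18.3% of all genes were called. Both were lower in D2: Crym, mu-crystallin (log2 fold change -0.70, SE 0.088, adjusted p = 8.66e-05, edgeR), and Gabbr1, a GABA-B receptor subunit (log2 fold change -0.18, SE 0.033, adjusted p = 0.00178, edgeR).

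Genes known from reactive astrocytes moved in both directions. Of 11 pan-reactive genes 5 were called, of 11 A1 genes 5 and of 12 A2 genes 2, where 18.3% of all genes were called. The A2 share (16.7%) was near that of all genes. Serpina3n, a serine protease inhibitor, had 732, 851, 736, 773 and 722 normalized counts in B6 and 2149, 1975, 1555, 2248 and 1829 in D2. The D2 values were all above the B6 values (log2 fold change 1.35, SE 0.093, adjusted p = 3.55e-07, edgeR). Aspg, Cd44, Gbp2, Emp1 and Cd14 were called higher in D2 too, and Osmr, H2-T23, Fbln5, Ggta1 and H2-D1 were called lower. H2-T23, a class Ib histocompatibility gene, had the largest change of the latter (log2 fold change -0.82, SE 0.066, adjusted p = 1.52e-06, edgeR). Reads of D2 were aligned to the B6 genome, and loss of D2 reads at H2-T23 and H2-D1 was not tested. Lcn2, lipocalin 2, split the B6 mice, with 2.9, 228, 394, 6.4 and 418 against 2.8, 2, 3.8, 3.8 and 8.2 in D2. B6 replicates 2, 3 and 5 carried almost all of it and the other B6 mice were at the D2 level (log2 fold change -5.65, SE 1.2, adjusted p = 0.0049, edgeR).

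**Figure D5:**
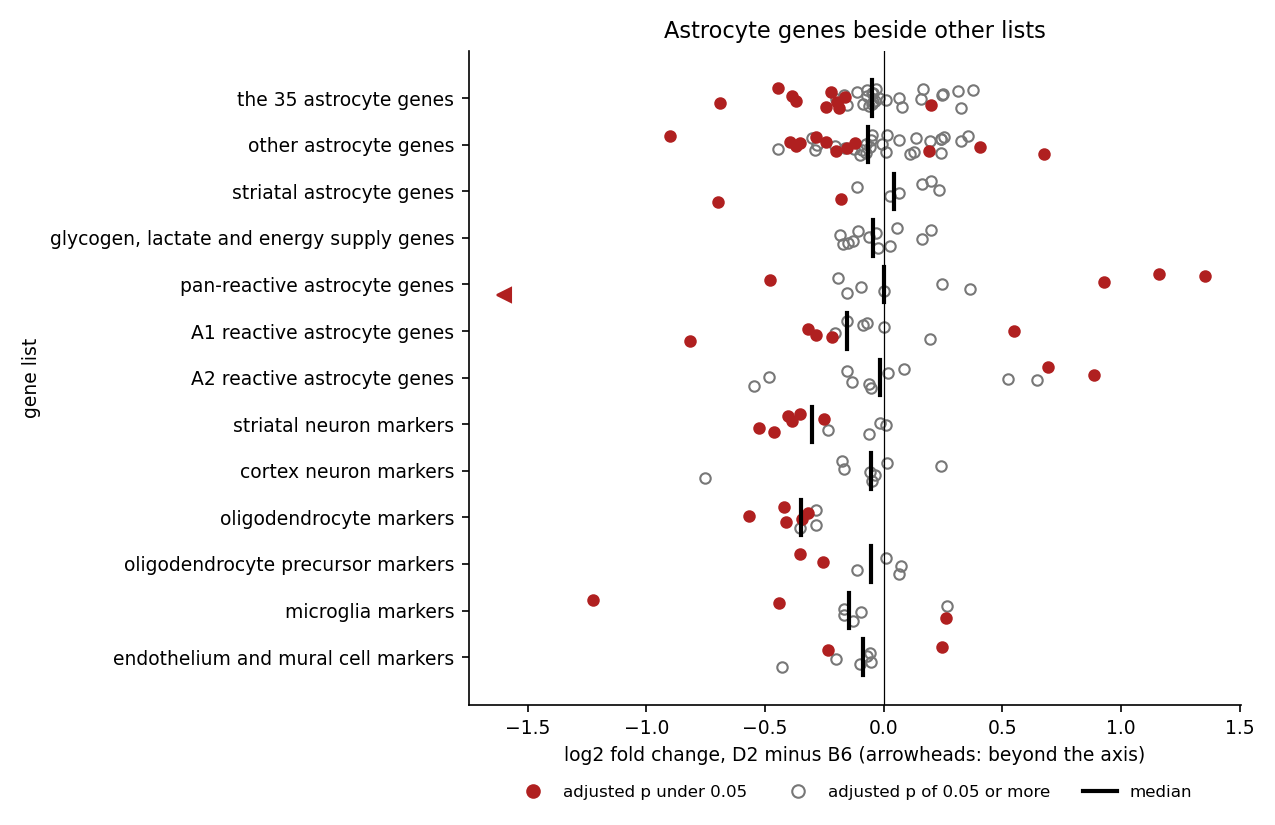
Log2 fold change, D2 minus B6, of the 35 astrocyte genes beside 12 other lists, 1 point per gene, filled where the edgeR adjusted p is under 0.05, with the median of each list as a bar. The 35 astrocyte genes center near 0 with a tail to the left led by Glul, and the arrowhead marks Lcn2 at -5.65.

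Markers of other cell types were read beside the astrocyte genes. Of 8 oligodendrocyte markers 5 were called, all lower in D2, and their summed level was 479654 to 690965 normalized counts in B6 and 362111 to 529742 in D2, with no marker at 0. Without B6 replicates 3 and 5, which had the highest sums of these markers, 1 of the 8 was called. With the oligodendrocyte marker level as a covariate 4 astrocyte genes were called, Glul, Aldoc and Ntsr2 lower and Pla2g7 higher in D2. Over all genes 3272 were then called (10.9%). Of 10 striatal neuron markers 6 were called lower (summed 527876 to 677330 in B6, 445125 to 538749 in D2), as were 2 of 6 oligodendrocyte precursor markers. Of 8 microglia markers 3 were called (2 lower), of 8 vessel markers 2 (1 lower), of 5 blood markers 3 (all lower) and of 5 choroid plexus markers 1 (lower), where 18.3% of all genes were called. Of 5 ependyma markers 0 were called by edgeR (1 at an unadjusted p under 0.05, 1 by DESeq2), and of 7 subventricular progenitor markers 0 (0 and 0). The part of these cell types in the astrocyte values was not tested.

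The sequence just before the start of the 4 called members with the largest changes, and of Gja1, the 1 member higher in D2, is printed with motif matches marked. RefSeq promoters (GRCm38.p6) were found for 30 of the 35 members, and each line holds the 250 bases before the start on the gene's strand, 5′ to 3′. Capitals mark matches, on either strand, to the NFI site TTGGC, the SOX core ACAAT, the STAT palindrome TTCNNNGAA or the AP-1 site TGANTCA.
Glul chr1:153899679-153899928: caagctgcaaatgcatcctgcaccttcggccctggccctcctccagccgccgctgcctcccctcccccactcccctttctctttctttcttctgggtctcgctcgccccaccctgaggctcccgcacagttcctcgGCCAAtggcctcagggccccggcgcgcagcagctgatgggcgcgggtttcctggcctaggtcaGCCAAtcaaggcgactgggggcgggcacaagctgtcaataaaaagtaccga
Htra1 chr7:130935953-130936202: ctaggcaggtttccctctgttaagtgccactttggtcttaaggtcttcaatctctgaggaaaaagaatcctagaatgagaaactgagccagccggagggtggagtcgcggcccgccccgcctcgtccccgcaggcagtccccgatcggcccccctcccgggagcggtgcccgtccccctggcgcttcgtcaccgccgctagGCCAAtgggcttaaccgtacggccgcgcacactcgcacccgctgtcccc
Ntsr2 chr12:16653220-16653469: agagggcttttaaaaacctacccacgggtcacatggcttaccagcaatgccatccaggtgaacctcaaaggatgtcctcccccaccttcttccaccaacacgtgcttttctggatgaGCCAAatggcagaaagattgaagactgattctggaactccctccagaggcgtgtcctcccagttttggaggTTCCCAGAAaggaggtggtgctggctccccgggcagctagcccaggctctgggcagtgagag
Aldoc chr11:78322823-78323072: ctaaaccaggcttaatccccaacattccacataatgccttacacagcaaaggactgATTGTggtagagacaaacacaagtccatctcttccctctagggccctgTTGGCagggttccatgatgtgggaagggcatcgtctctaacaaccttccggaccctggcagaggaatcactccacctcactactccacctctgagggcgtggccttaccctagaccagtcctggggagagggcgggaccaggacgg
Gja1 chr10:56377050-56377299: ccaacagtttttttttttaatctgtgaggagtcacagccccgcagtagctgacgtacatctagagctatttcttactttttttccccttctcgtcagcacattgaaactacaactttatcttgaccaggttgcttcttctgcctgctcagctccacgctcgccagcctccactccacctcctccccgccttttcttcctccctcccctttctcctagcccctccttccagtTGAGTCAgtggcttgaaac

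The NFI site, named for factors that drive astrocyte development, was in 17 of the 30 member promoters (56.7%) and in 41.9% of all 27025 promoters. Glul has it 114 and 51 bases before the start, Htra1 49, Ntsr2 133 and Aldoc 146. In Glul and Htra1 the letters read GCCAAT and so also hold a CCAAT box. Of the 7 members lower in D2 with a promoter in the table, 5 hold the NFI letters. The STAT palindrome, named for factors that promote Gfap expression, was in 6 of 30 (20%, 7.18% of all promoters), among them Ntsr2 at 62 bases before the start. Gfap itself had no match in this window. The SOX core was in 6 of 30 (20%, against 28.3% of all), including Aldoc at 194. The AP-1 letters were in Gja1 alone, at 19 bases before the start (3.33% of members, 6.87% of all). The TATA box TATAAA was in 4 of 30 (13.3%, against 13% of all), namely Agt, Gpc5, Slc1a3 and Vim. These shares describe letters in a window, not bound sites.

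The called members did not lie together. The 10 called genes are on 10 chromosomes, and the 35 genes on 17. Within 500 kb of the called members 34 of 196 other tested genes were called (17.3%), and within 500 kb of the members that were not called 109 of 586 (18.6%). Around Glul the count was 10 of 22 (45.5%), and around Gja1 and Aqp4 it was 0 of 6 and 0 of 9 by the same edgeR test.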

How the data were processed

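The authors extracted NAc RNA from 10 mice, made stranded poly-A libraries and sequenced paired ends of 150 bp. They trimmed reads with fastp, aligned both strains to the B6 genome (GRCm39, Ensembl release 108) with STAR 2.7.10b and sorted with SAMtools 1.6. What was deposited is a table of raw gene counts made with featureCounts (strand setting not given in the sources used here), and genes with a median of 0 were removed by the authors. Reads of D2 that carry variants can align less well to the B6 genome, and this was not tested.

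Strains were read from the labels. Counts were tested with edgeR 4.0.16 (R 4.3.3, TMM, quasi-likelihood F test, strain alone, no further filter). On simulated counts for this comparison over 29883 genes it found 161 of 200 genes given a log2 change of 1, with 8 false calls. SE is the absolute log2 fold change over the root of F. DESeq2 1.42.0 was an alternative, where the study used DESeq2. Within-mouse ratios were tested by exact permutation. The members and lists were chosen with earlier results of these data known. Named were called members with an absolute log2 fold change of at least 0.25, 8 defining markers, and, of other lists, up to 3 called genes per direction whose mean count reached 100. Lengths and neighbors came from GENCODE on GRCm39, which held 29519 of the IDs. Counting precision at 96977262 to 116776714 reads is high for all members, and 5 mice per strain limit what can be called. The labels give no pairing of mice by replicate number, and the main fit used none.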

Additional observations from a re-analysis of the deposited data

Results flagged for a closer look

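In 3 of 80 groups of 5 mice (2 strains for the 35 genes and the ratios and sums), 1 mouse lay farther from the rest than Dixon's limit of 0.71 of the range. Chance gives about 1 in 20 such groups. Apoe in D2 replicate 5 was 113941 normalized counts, above the other D2 mice. Fgfr3 in D2 replicate 1 was 12141, with the other 4 D2 mice within a narrow band. Vim in B6 replicate 4 was 2569, above the other B6 mice, and without that mouse Vim was called higher in D2.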

How the results depend on the processing

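The 10 called members kept their direction in all 230 values under other settings. Members called ranged from 9 to 11 with each mouse left out (1 to 2 higher, 8 to 10 lower), all genes called from 4636 to 5676, and oligodendrocyte markers called from 2 to 7. DESeq2 called 13 members (3 higher), total-count scaling gave 3 higher, and scaling to the other astrocyte genes gave 11 members (5 higher, 6 lower), with 3 oligodendrocyte markers. That scaling moved the median of all genes to 0.063.

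With the cortex marker level as a covariate 16 members were called (6 higher), 3905 genes were higher in D2, and 26 of the other astrocyte genes and 8 oligodendrocyte markers were called. With the oligodendrocyte covariate the counts were 4 members (3 lower), 3272 genes (1559 higher, 1713 lower), 6 other astrocyte genes, 6 reactive genes and 0 oligodendrocyte markers. At adjusted p under 0.01 they were 6 members (5 lower), 3415 genes (1579 higher, 1836 lower), 5 other astrocyte genes and 1 oligodendrocyte marker. Settings without 2 mice were added after seeing the data. Without B6 replicates 3 and 5, 14 members were called (3 higher) and 1 oligodendrocyte marker, and the ratios of Slc1a2 to Slc1a3 (log2 0.26) and Gja1 to Gjb6 (0.50) passed. Without B6 replicate 2 and D2 replicate 1, 7 other astrocyte genes were called. The cause of these shifts was not tested.

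The log2 ratio of summed member levels was -0.16 without Slc1a2 and -0.039 as a geometric mean. Leaving out each mouse gave -0.40 to -0.31 for Slc7a11 to Slc7a10, each at an exact permutation p of 0.0159, the smallest for 4 against 5 mice (adjusted p = 0.0635), and -0.055 to 0.14 for Gfap to Vim, which turned to -0.014 without B6 replicate 4 and -0.055 without D2 replicate 5. Deviations of same-numbered mice gave mixed correlations (0.37, -0.40, 0.36, 0.032 and -0.29). For B6 replicates 1 and 3 the same-numbered D2 mouse was the best partner. These values do not settle whether the numbers pair mice, and the labels give no pairing. With a replicate block 11 members and 4731 genes were called, and Slc7a11 to Slc7a10 (-0.35) could not pass, since 5 sign flips allow no p under 0.0625 (adjusted p = 0.167, exact).

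Among the 25 members not called, 28 of 575 values changed sign. With the oligodendrocyte covariate S100b was 0.11, Slc4a4 -0.016, Cldn10 0.044, Agt -0.060 and Slco1c1 0.084. Scaled to other astrocyte genes, Sox9 was 0.010, Apoe 0.016, Fgfr3 0.022, Mlc1 0.038, Id3 0.0064, Cyp4f14 0.015 and Slco1c1 0.029. With the cortex covariate Apoe was 0.0054, Mlc1 0.0070 and Id3 0.011. With total counts Mlc1 was 0.0081 and Slco1c1 0.0011. Without B6 replicates 3 and 5, Slc4a4 was -0.047, Agt -0.29, Itih3 -0.080 and Slco1c1 0.017, and without B6 replicate 2 and D2 replicate 1, Apoe was 0.00065. With 1 mouse left out Slc4a4 ranged from -0.021 to 0.047, Mlc1 from -0.051 to 0.0015, Id3 from -0.12 to 0.031 and Slco1c1 from -0.076 to 0.0081.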
